A study of Mus musculus with 12 samples.

Results

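The circadian clock genes Arntl, Clock, Npas2, Per2, Per3, Cry1, Nr1d1, Nr1d2, Dbp and Ciart were followed in RNA sequencing of mouse skin. They were taken by gene symbol, and all 10 were found among the 25070 rows of the deposited table. The 12 libraries came from total RNA of skin biopsies. The 10 bitten samples were taken 4 days after the bite, and the naive ones are labelled as not bitten but carry the same day in their labels. There were 3 libraries labelled 1st exposure, 3 labelled ticks 2x, 3 labelled ticks 3x and 1 labelled saliva immune, beside 2 naive libraries. The sources used here do not give strain, sex, age, tick species or the time of day of sampling, so no level can be placed on a clock phase. The labels do not say whether each library is a separate animal, so a p-value measures the spread between these libraries, which may be technical. By their titles, libraries of first exposure and of saliva immune skin belong to a series named EF19-4 (n = 4), and the ticks 2x, ticks 3x and naive libraries to a series named EF19-6 (n = 8). A first exposure and its title series thus cannot be told apart, whereas the ticks 2x, ticks 3x and naive libraries can be compared inside 1 series.

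In mammals the clock is a transcriptional loop that runs in most cells. Arntl encodes BMAL1, which pairs with CLOCK or its relative NPAS2 and activates genes that carry an E-box. Among these targets are the Per and Cry genes, whose proteins repress the pair, Ciart, which encodes a further repressor, and Nr1d1 and Nr1d2, whose products REV-ERB alpha and beta repress Arntl and Npas2 through sites called ROREs. Dbp, another E-box target, encodes an activator that binds D-boxes, for which NFIL3 competes as a repressor. In mouse tissues Arntl and Npas2 are known to peak at about the opposite time of day from Nr1d1 and Dbp, and in skin the clock is known to run in the epidermis, the dermis and the hair follicle.

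The promoters of 4 of the genes are printed because they carry the elements through which the loop is known to act. RefSeq sequence for GRCm38.p6, the build named in the submitters' processing notes, was searched from 250 bases before to 50 after each annotated start, on both strands. Windows were found for 9 of the 10 genes, with 12 windows in all, and none for Per2. The letters searched were CACGTG for the E-box, TTATGTAA and TTACGTAA for the D-box, and TAGGTCA and TGGGTCA for the core of the RORE. Matches are in capitals, each sequence is given 5′ to 3′ on the strand of its gene, and no match of 1 element overlapped another. The Ciart window lies at chr3:95882179-95882478 on the minus strand, that of Cry1 at chr10:85185005-85185304 on the minus strand, that of Per3 at chr4:151044616-151044915 on the minus strand and that of Arntl at chr7:113207261-113207560 on the plus strand.
Ciart: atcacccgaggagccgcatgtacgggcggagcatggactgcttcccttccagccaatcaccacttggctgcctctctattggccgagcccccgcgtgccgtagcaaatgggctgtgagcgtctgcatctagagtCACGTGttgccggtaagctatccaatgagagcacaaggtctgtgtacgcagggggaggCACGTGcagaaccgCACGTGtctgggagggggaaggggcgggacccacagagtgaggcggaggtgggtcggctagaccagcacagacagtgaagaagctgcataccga
Cry1: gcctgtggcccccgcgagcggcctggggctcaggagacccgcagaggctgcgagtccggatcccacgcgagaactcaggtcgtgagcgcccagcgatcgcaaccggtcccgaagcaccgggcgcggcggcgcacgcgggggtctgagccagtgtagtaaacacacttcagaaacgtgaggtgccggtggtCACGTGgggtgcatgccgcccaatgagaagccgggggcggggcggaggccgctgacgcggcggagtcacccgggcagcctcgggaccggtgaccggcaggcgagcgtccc
Per3: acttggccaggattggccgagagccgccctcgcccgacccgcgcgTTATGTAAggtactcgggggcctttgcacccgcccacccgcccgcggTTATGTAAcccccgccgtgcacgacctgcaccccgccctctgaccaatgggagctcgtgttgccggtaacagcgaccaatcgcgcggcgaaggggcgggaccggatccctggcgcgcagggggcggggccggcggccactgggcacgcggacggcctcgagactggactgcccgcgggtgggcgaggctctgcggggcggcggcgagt
Arntl: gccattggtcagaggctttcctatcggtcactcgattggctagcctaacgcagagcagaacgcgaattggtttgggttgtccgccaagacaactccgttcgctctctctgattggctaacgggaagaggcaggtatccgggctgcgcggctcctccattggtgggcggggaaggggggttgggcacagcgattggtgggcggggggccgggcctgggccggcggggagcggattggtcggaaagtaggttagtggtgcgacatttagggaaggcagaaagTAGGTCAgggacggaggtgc
The Ciart window held 3 E-boxes, starting 116, 58 and 44 bases before the start site, and the Cry1 window held 1, starting 60 bases before it. The Per3 window held 2 D-boxes, starting 205 and 158 bases before the start site, and the Arntl window held 1 RORE core, starting 30 bases after it. Of all 32851 promoter windows, 7.15% held the E-box, 1.06% a D-box and 6.45% a RORE core. A match is a run of letters and not a binding site, and a window without one says only that those letters are not in it.

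Of the activators of the loop, Arntl varied least between libraries, Clock more and Npas2 most. Levels are in CPM, a gene's reads scaled to the total of its library with no correction for gene length, so they compare libraries and not genes. In bulk tissue, fewer cells that express a gene and less of its RNA per cell cannot be told apart. Arntl was at 7.72, 7.58 and 10.1 CPM after first exposure, 6.93, 9.40 and 8.26 CPM in ticks 2x, 12.3, 7.62 and 10.3 CPM in ticks 3x and 9.55 CPM in saliva immune skin, against 10.4 and 11.1 CPM in naive skin. Its highest library was 1.78 times its lowest, the smallest such ratio of the 10 genes. Arntl lies at chr7:113178471-113314126, Clock at chr5:76209868-76305603 and Npas2 at chr1:39193702-39363240 in GRCm38.p6. Clock was at 68.5, 54.7 and 90.8 CPM after first exposure, 66.3, 94.6 and 89.1 CPM in ticks 2x, 94.9, 97.4 and 90.4 CPM in ticks 3x and 88.8 CPM in saliva immune skin, against 92.2 and 117 CPM in naive skin. Npas2 was at 8.18, 4.85 and 14.1 CPM after first exposure, 9.78, 14.1 and 16.9 CPM in ticks 2x, 18.1, 12.1 and 17.9 CPM in ticks 3x and 13.0 CPM in saliva immune skin, against 11.5 and 22.4 CPM in naive skin. The highest library was 2.13 times the lowest for Clock and 4.61 times for Npas2. For Clock and Npas2 the 3 lowest libraries were first exposure replicates 1 and 2 and ticks 2x replicate 1.

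The REV-ERB genes, Nr1d1 at chr11:98767932-98775377 and Nr1d2 at chr14:18204056-18239106, varied in step with each other, with highest libraries 3.33 and 2.58 times their lowest. Nr1d1 was at 48.2, 39.3 and 131 CPM after first exposure, 43.3, 73.5 and 91.9 CPM in ticks 2x, 97.1, 111 and 112 CPM in ticks 3x and 131 CPM in saliva immune skin, against 68.2 and 70.8 CPM in naive skin. Nr1d2 was at 48.5, 44.6 and 97.0 CPM after first exposure, 44.2, 75.8 and 82.3 CPM in ticks 2x, 94.8, 114 and 105 CPM in ticks 3x and 93.6 CPM in saliva immune skin, against 70.3 and 77.2 CPM in naive skin. For both genes all ticks 3x libraries lay above all naive and all ticks 2x libraries. Of the 17172 genes tested, 25.1% had no overlap between ticks 3x and naive libraries, and 11.7% none between ticks 3x and ticks 2x. The first exposure libraries spread between 39.3 and 131 CPM for Nr1d1 and between 44.6 and 97.0 CPM for Nr1d2. The same 3 libraries that were lowest for Clock were lowest here.

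Of the outputs and repressors, Dbp at chr7:45705100-45710203 varied most. It was at 4.77, 8.15 and 19.3 CPM after first exposure, 3.01, 4.85 and 11.5 CPM in ticks 2x, 8.16, 17.5 and 7.26 CPM in ticks 3x and 16.7 CPM in saliva immune skin, against 5.63 and 5.30 CPM in naive skin, a ratio of 6.41 between its highest and lowest library. Its naive libraries were close together and the bitten ones lay on both sides of them. Per2, which encodes a period protein of the repressor complex, was at 9.33, 9.42 and 9.06 CPM after first exposure, 6.73, 4.70 and 12.5 CPM in ticks 2x, 6.38, 21.2 and 12.8 CPM in ticks 3x and 7.02 CPM in saliva immune skin, against 5.78 and 6.55 CPM in naive skin. Per3, its relative and a target of DBP, was at 19.3, 16.9 and 29.5 CPM after first exposure, 9.59, 11.7 and 21.7 CPM in ticks 2x, 19.8, 34 and 26.2 CPM in ticks 3x and 31.7 CPM in saliva immune skin, against 15.0 and 24.8 CPM in naive skin. Per2 lies at chr1:91415977-91459351 and Per3 at chr4:150997018-151044707. Ticks 3x replicate 2 was the highest library for both.

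Cry1, which encodes a cryptochrome, the partner of the period proteins, was at 15.2, 18.2 and 9.10 CPM after first exposure, 12.8, 9.09 and 11.4 CPM in ticks 2x, 8.42, 10.1 and 11.8 CPM in ticks 3x and 8.50 CPM in saliva immune skin, against 18.6 and 15.2 CPM in naive skin. Every ticks 2x and ticks 3x library lay below both naive libraries. Over all genes tested, 27.6% had no overlap between ticks 2x and naive libraries and 25.1% none between ticks 3x and naive. Cry1 lies at chr10:85131700-85185054 and Ciart at chr3:95878500-95882257. Ciart was at 3.60, 3.96 and 2.46 CPM after first exposure, 2.65, 2.59 and 2.42 CPM in ticks 2x, 3.55, 3.46 and 5.08 CPM in ticks 3x and 2.77 CPM in saliva immune skin, against 1.44 and 1.92 CPM in naive skin. All 10 bitten libraries lay above both naive ones for Ciart, a split that 3.96% of the 17172 genes tested also showed in that direction and 7.09% in either; this split was chosen after the values were seen. Ciart was the least covered gene, with an estimated 24 reads in naive replicate 2, so counting error alone is larger for it than for the others.

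**Figure D1:**
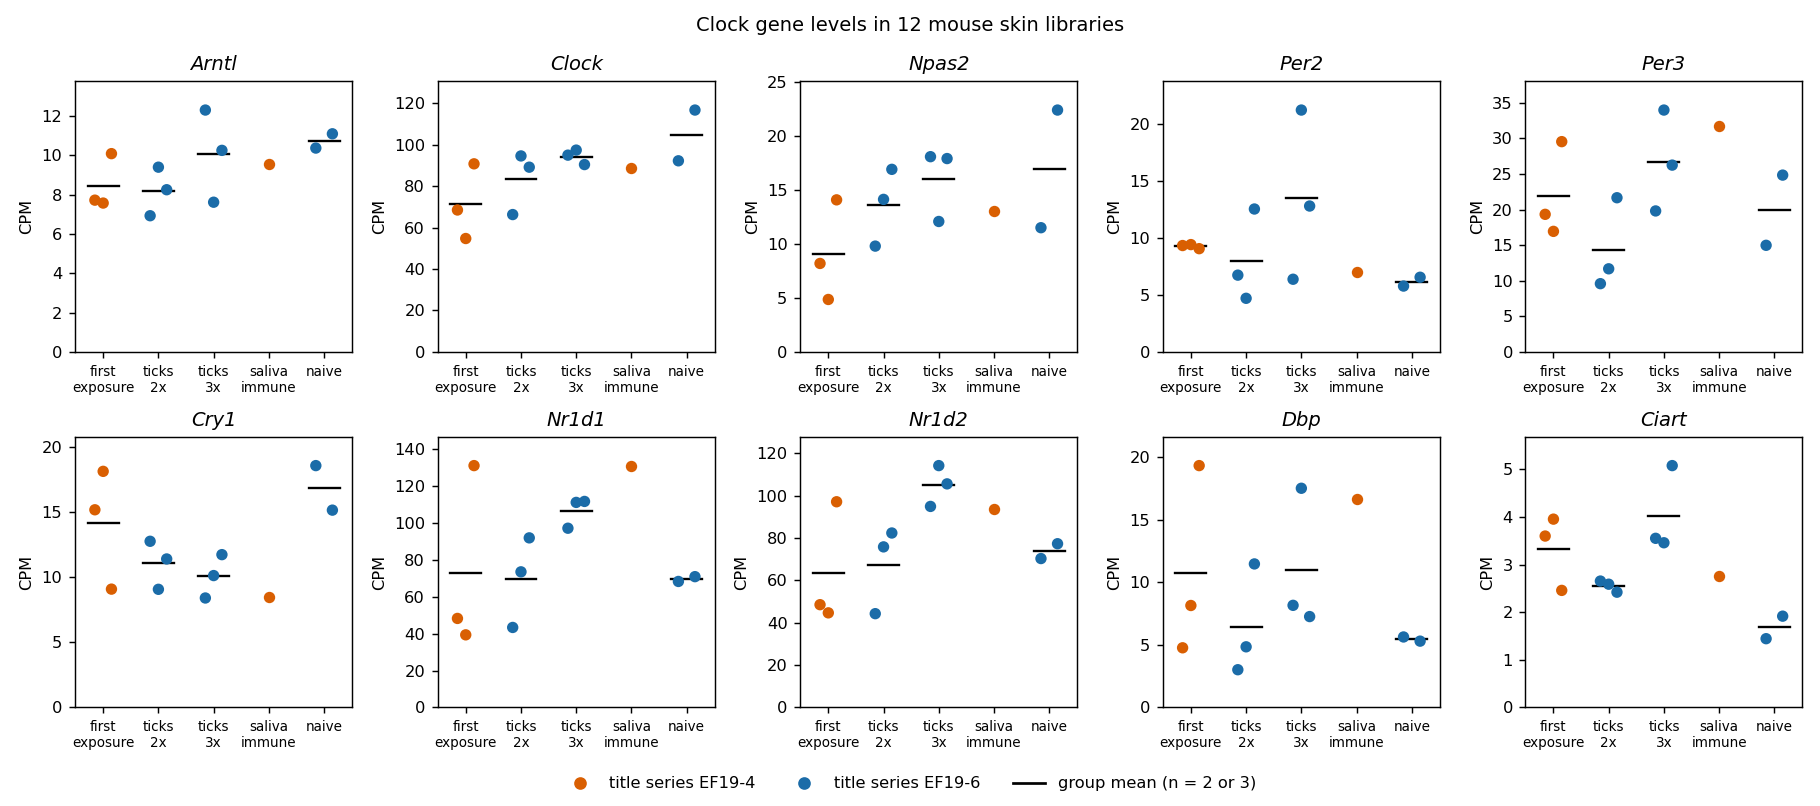
Level of each clock gene in CPM (vertical axes, from 0) in 12 skin libraries, grouped on the horizontal axis by exposure label and coloured by title series; each point is 1 library and each bar a group mean. Ciart is higher in all 10 bitten libraries than in both naive ones, and no other clock gene splits them in either direction. Arntl, Clock, Per2, Cry1, Nr1d1, Nr1d2 and Dbp each have at least 1 exposure group of 3 libraries that does not overlap naive skin. Of all genes tested, 35.1% do not overlap naive skin in first exposure, 27.6% in ticks 2x and 25.1% in ticks 3x.

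The spread of the genes over the 12 libraries can be set beside that of other genes of like level, meaning within 0.5 on the log2(CPM + 1) scale. For Arntl the standard deviation on that scale was 0.23, and 23.6% of 2271 genes of like level varied less. For Ciart it was 0.36, with 35.1% of genes of like level varying less. The values were 0.60 and 89.8% for Nr1d1, 0.75 and 83.8% for Dbp, 0.47 and 82.1% for Nr1d2 and 0.54 and 80.1% for Per3. They were 0.54 and 75.3% for Npas2, 0.54 and 69.3% for Per2, 0.29 and 61.1% for Clock and 0.38 and 58.8% for Cry1. Arntl and Ciart thus varied less than most genes of their level and the other 8 varied more.

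Ticks 3x skin was compared with naive skin inside EF19-6, with limma on log2(CPM + 1). No clock gene passed an adjusted p of 0.05 over the 17060 genes tested, of which 0.00586% did, and 2 of the 10 genes, Ciart and Cry1, had an unadjusted p below 0.05, as did 6.95% of all genes. Ciart averaged 4.03 ± 0.910 CPM in ticks 3x (SD, n = 3) and 1.68 ± 0.335 CPM in naive skin (SD, n = 2), with a log2 fold change of 0.90 (95% interval 0.40 to 1.39, limma adjusted p = 0.449). Cry1 averaged 10.1 ± 1.67 CPM in ticks 3x and 16.9 ± 2.42 CPM in naive skin, with a log2 fold change of -0.69 (-1.32 to -0.06, limma adjusted p = 0.692). Nr1d1 averaged 107 ± 8.23 CPM in ticks 3x and 69.5 ± 1.84 CPM in naive skin, with a log2 fold change of 0.61 (-0.44 to 1.65, limma adjusted p = 0.856). For Nr1d2 it was 0.50 (-0.28 to 1.28), for Dbp 0.79 (-0.57 to 2.16) and for Per2 0.88 (-0.14 to 1.90). Without ticks 3x replicate 2 the value was 0.43 for Dbp and 0.50 for Per2.

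The libraries of these groups did not overlap for 5 of the 10 genes, with Nr1d1, Nr1d2, Dbp and Ciart above and Cry1 below in ticks 3x, against 25.1% of all genes with no overlap. The median log2 fold change of the 10 genes was 0.46, and that of all genes 0.02. Arntl differed by less than its spread, at 10.1 ± 2.35 CPM in ticks 3x and 10.7 ± 0.514 CPM in naive skin.

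Ticks 2x skin was set against the same naive libraries, so the ticks 2x and ticks 3x comparisons are not independent. No clock gene passed the threshold, against 0.0352% of all genes, and 0 of 10 had an unadjusted p below 0.05 in limma, against 10.9% of all genes. Cry1 averaged 11.1 ± 1.87 CPM in ticks 2x and 16.9 ± 2.42 CPM in naive skin (log2 fold change -0.57, 95% interval -1.20 to 0.06, limma adjusted p = 0.493). Ciart averaged 2.55 ± 0.121 CPM in ticks 2x and 1.68 ± 0.335 CPM in naive skin (0.41, -0.08 to 0.91, limma adjusted p = 0.523). Arntl averaged 8.20 ± 1.24 CPM in ticks 2x and 10.7 ± 0.514 CPM in naive skin (-0.36, -0.87 to 0.15, limma adjusted p = 0.585). These 3 genes, with Ciart above and the others below, were those whose libraries did not overlap, against 27.6% of all genes.

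Ticks 3x against ticks 2x, the step between the repeat exposures, gave log2 fold changes above 0 for 9 of the 10 genes, with a median of 0.56 against 0.03 over all genes. No gene of all 17060 passed the threshold (0.0% called), and 2 of the 10, Per3 and Ciart, had an unadjusted p below 0.05 in limma, against 5.15% of all genes. Per3 averaged 26.7 ± 7.10 CPM in ticks 3x and 14.3 ± 6.45 CPM in ticks 2x (SD, n = 3 each), with a log2 fold change of 0.90 (95% interval 0.13 to 1.67, limma adjusted p = 0.894). Nr1d2 averaged 105 ± 9.65 CPM in ticks 3x and 67.4 ± 20.4 CPM in ticks 2x (0.67, -0.02 to 1.37), and Nr1d1 107 ± 8.23 and 69.5 ± 24.5 CPM in the same order (0.67, -0.26 to 1.60). Ciart differed by 0.49 (0.04 to 0.93). Cry1 was the 1 gene below 0, at -0.12 (-0.69 to 0.44). Without ticks 2x replicate 1 the value was 0.37 for Nr1d1 and 0.40 for Nr1d2. Nr1d1, Nr1d2 and Ciart had no overlap between the groups, against 11.7% of all genes.

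Marker genes of cell types were set beside the same comparison, with none past the threshold. Of 12 skeletal muscle genes, 11 had log2 fold changes above 0 with a median of 1.01, and their summed level was between 4589 and 37992 CPM in ticks 3x and between 2099 and 24922 CPM in ticks 2x. All 6 keratinocyte genes were above 0 with a median of 0.47, but their summed level was between 12462 and 19469 CPM in ticks 3x, inside the range of 7906 to 21786 CPM in ticks 2x. Of 8 myeloid genes, 6 were below 0, with a median of -0.30. The median was 0.30 for 10 adipocyte genes and 0.14 for 18 hair follicle genes. Between ticks 3x and naive skin the median was -0.95 for the muscle genes, with 0 of 12 above 0, and 0.51 for the keratinocyte genes, with 6 of 6 above 0. The part of these markers in the clock gene values was not tested.

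**Figure D2:**
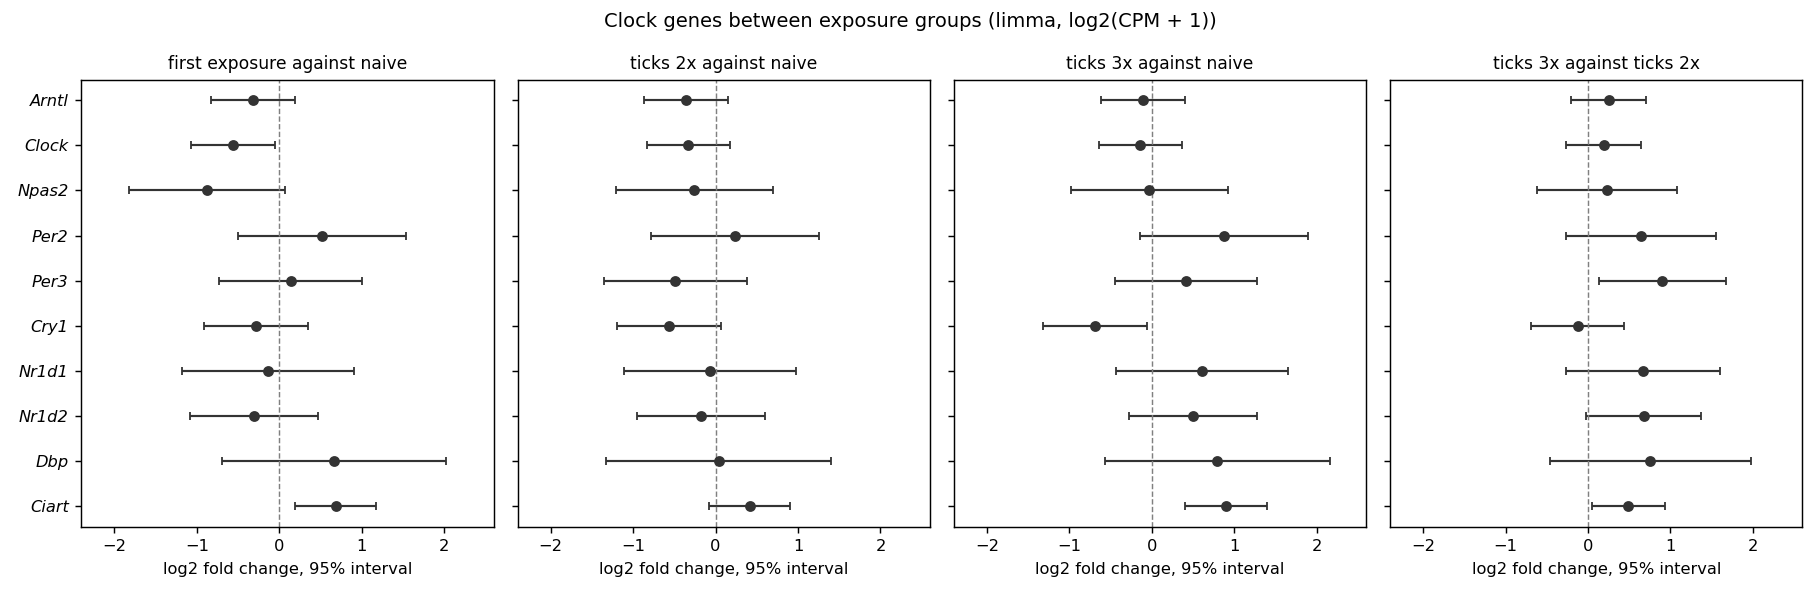
Log2 fold change on the log2(CPM + 1) scale (horizontal axes) of the 10 clock genes in 4 comparisons of exposure groups, with points for limma's estimate and bars for its 95% interval; the first group named in each title is on top of the fold. None of the 40 values passed an adjusted p of 0.05, and the intervals of Dbp are the widest in every panel.

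First exposure was compared with naive skin across the title series. No clock gene passed the threshold, against 0.0117% of all genes, and Ciart and Clock had an unadjusted p below 0.05, as did 16.4% of all genes. Ciart averaged 3.34 ± 0.782 CPM after first exposure and 1.68 ± 0.335 CPM in naive skin (log2 fold change 0.68, 95% interval 0.19 to 1.18, limma adjusted p = 0.177). Clock averaged 71.3 ± 18.2 CPM after first exposure and 104 ± 17.3 CPM in naive skin (-0.56, -1.07 to -0.06, limma adjusted p = 0.262), and Arntl 8.46 ± 1.41 and 10.7 ± 0.514 CPM in the same order (-0.32, -0.83 to 0.19). Npas2 averaged 9.03 ± 4.67 CPM after first exposure and 16.9 ± 7.69 CPM in naive skin (-0.87, -1.82 to 0.07). Its value was -0.54 without first exposure replicate 2, -1.33 without naive replicate 1 and -0.42 without naive replicate 2. The groups did not overlap for 4 of the 10 genes, with Per2 and Ciart above and Arntl and Clock below, against 35.1% of all genes.

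The repeat exposures were also compared with first exposure, again across title series, and both comparisons share the first exposure libraries. No gene of all 17060 passed the threshold in either comparison (0.0% called), and for the clock genes an unadjusted p below 0.05 was reached in limma by 0 of 10 in ticks 2x and by 1, Nr1d2, in ticks 3x, against 15.9% and 17.8% of all genes. In ticks 2x the largest values were -0.62 for Dbp (95% interval -1.84 to 0.59), -0.62 for Per3 (-1.40 to 0.15) and 0.62 for Npas2 (-0.23 to 1.47), and the libraries overlapped for all 10 genes, against 17.8% of all genes with no overlap. Single libraries moved all 3: Dbp was at -1.04 without first exposure replicate 1, -0.13 without first exposure replicate 3, -0.26 without ticks 2x replicate 1 and -1.08 without ticks 2x replicate 3. Per3 was at -0.40 without first exposure replicate 3, -0.40 without ticks 2x replicate 1 and -0.95 without ticks 2x replicate 3, and Npas2 at 0.28 without first exposure replicate 2 and 0.96 without first exposure replicate 3. In ticks 3x the log2 fold change of Nr1d2 was 0.80 (0.11 to 1.5, limma adjusted p = 0.241), that of Nr1d1 0.75 (-0.19 to 1.68, limma adjusted p = 0.346), that of Npas2 0.85 (-0.00 to 1.70) and that of Cry1 -0.41 (-0.97 to 0.15), again with overlap for all 10 genes, against 21.4% of all genes with none. Without first exposure replicate 2 the values were 0.41 for Nr1d1, 0.51 for Npas2 and -0.22 for Cry1, and without first exposure replicate 3 Cry1 was at -0.68. A single library decided the REV-ERB calls. Without first exposure replicate 3, limma called Nr1d1 at 1.27 (adjusted p = 0.0410) and Nr1d2 at 1.15 (adjusted p = 0.0401). Of 16939 genes then tested, 1371 (8.09%) were called. First exposure replicates 1 and 2, then left, were the libraries highest in hair follicle genes. Their means were 9.26 and 9.60 on the log2(CPM + 1) scale, against 0.89 to 6.79 in ticks 3x. The part of hair follicle content in these calls was not tested.

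The title series themselves were compared over all 12 libraries. Of 17172 genes, 490 (2.85%) passed an adjusted p of 0.05, and none of the 10 clock genes did. Npas2 alone of them had an unadjusted p below 0.05, as did 17.9% of all genes. It averaged 10.03 ± 4.30 CPM in EF19-4 (SD, n = 4) and 15.3 ± 4.20 CPM in EF19-6 (SD, n = 8), with a log2 fold change of -0.62 (95% interval -1.20 to -0.04, limma adjusted p = 0.249). Clock was at -0.30 (-0.64 to 0.03), Arntl at -0.10 (-0.44 to 0.23), Dbp at 0.55 (-0.35 to 1.45) and Per3 at 0.30 (-0.36 to 0.97). Without first exposure replicate 2 the values were -0.35 for Npas2, -0.16 for Clock and 0.45 for Per3. Dbp was at 0.89 without first exposure replicate 1, 0.28 without first exposure replicate 3 and 0.35 without the saliva immune library. Per3 was at 0.20 without first exposure replicate 3, 0.16 without the saliva immune library and 0.17 without ticks 2x replicate 1. The interval of Arntl spans at most 0.44 in either direction, so a larger shift between the series lies outside it, whereas that of Dbp still holds a shift of 1.45. The series overlapped for all 10 genes, while 3.99% of all genes had no overlap. The median log2 fold change of the 10 genes was -0.03, with 5 above 0 and 5 below, and that of all genes 0.07.

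Immediate early genes, rapid transcriptional responders to stimuli, are shown beside them for scale. Of 16 such genes, 10 passed the threshold as lower in EF19-4 and 0 as higher, against 130 lower and 360 higher of all 17172 genes. The 16 had a median log2 fold change of -1.86. Fos, the best known of them, was at -3.40 (95% interval -5.06 to -1.74, limma adjusted p = 0.0353). Its EF19-4 libraries were not alike, at 76.0, 23.4 and 1055 CPM after first exposure and 219 CPM in saliva immune skin. First exposure replicate 3 thus lay inside the EF19-6 range of 782 to 3383 CPM for Fos. Per1, the period gene that is itself inducible by stimuli, was at 111, 108 and 180 CPM after first exposure and 34.1 CPM in saliva immune skin, and at 43.7, 65.2 and 96.6 CPM in ticks 2x, 72.4, 101 and 102 CPM in ticks 3x and 112 and 219 CPM in naive skin. Its log2 fold change between the series was 0.02 (-0.93 to 0.96).

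**Figure D3:**
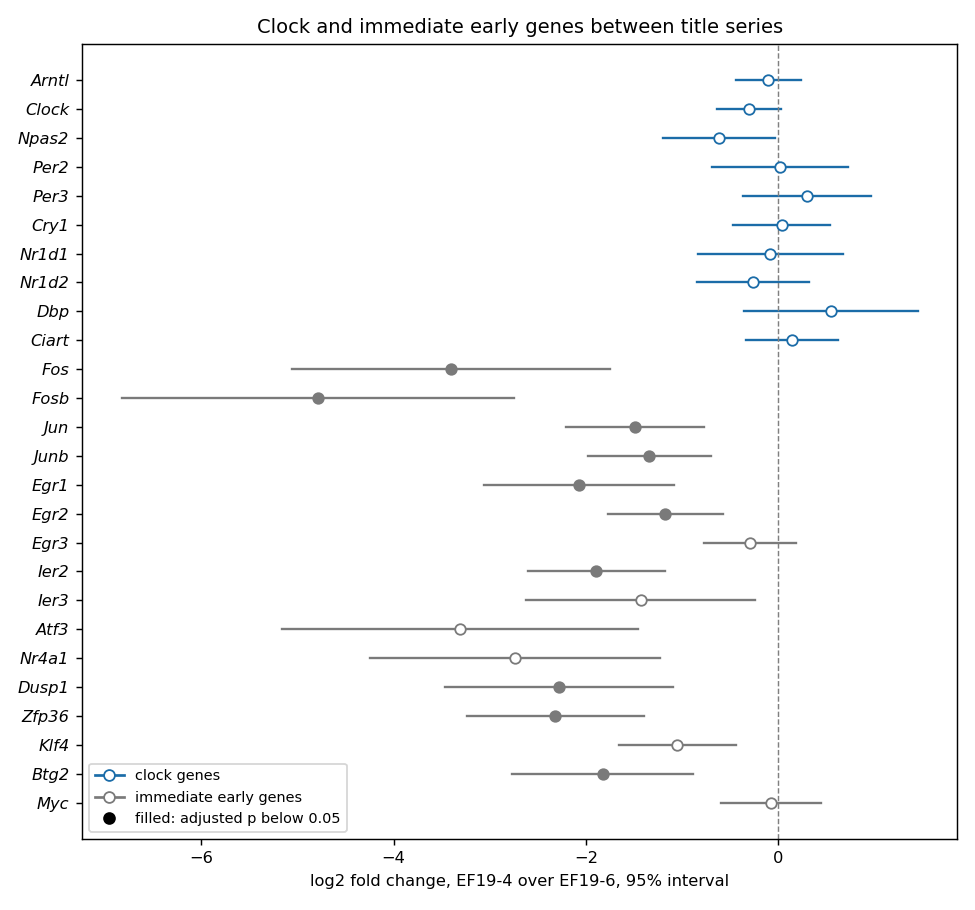
Log2 fold change of EF19-4 over EF19-6 libraries (horizontal axis, 4 against 8 libraries) for the 10 clock genes and 16 immediate early genes, with bars for limma's 95% interval and filled points where the adjusted p was below 0.05. The clock genes sit between -0.62 and 0.55 with no filled point, and 10 immediate early genes are filled, all below 0.

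The levels of 4 clock genes were lowest in the libraries with most hair follicle RNA, a split into libraries that was made after the values were seen and is given with no test. Of 19 hair keratin and follicle genes, 18 were found, and their summed level ran between 26019 and 33601 CPM in first exposure replicates 1 and 2 and ticks 2x replicate 1, and between 38.5 and 8838 CPM in the other 9 libraries. None of the 18 was listed at 0 in those 3 libraries, and 9 were listed at 0 in at least 1 of the others. Clock was between 54.7 and 68.5 CPM in the 3 libraries and between 88.8 and 117 CPM in the other 9. Nr1d1 was between 39.3 and 48.2 CPM against 68.2 to 131 CPM, Nr1d2 between 44.2 and 48.5 CPM against 70.3 to 114 CPM, and Npas2 between 4.85 and 9.78 CPM against 11.5 to 22.4 CPM.

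These 4 genes thus had the 3 libraries below all others, and no clock gene had them above, against 6.92% of all genes below and 14.6% above (21.5% in all). Whether hair follicle content has a part in these levels was not tested. Naive replicate 1 came next in hair follicle level, with a mean of 7.68 on the log2(CPM + 1) scale, and was the lowest of the other 9 libraries for Nr1d1 (68.2 CPM), Nr1d2 (70.3 CPM) and Npas2 (11.5 CPM). For Clock it was at 92.2 CPM, above the lowest of the 9. Ticks 3x replicate 2 followed, with a mean of 6.79. That library was at 111 CPM for Nr1d1, 97.4 CPM for Clock and 12.1 CPM for Npas2. Its Nr1d2 level, 114 CPM, was the highest of the 12 libraries. With the mean of the hair follicle genes entered as a covariate, the log2 fold change of Clock between first exposure and naive skin was -0.44 (limma adjusted p = 0.212), that of Npas2 -0.60 (0.233), and that of Nr1d1 between ticks 3x and first exposure 0.46 (0.409). Between ticks 3x and ticks 2x the values with the covariate were 0.68 for Nr1d1, 0.68 for Nr1d2 and 0.91 for Per3 (adjusted p = 0.419, 0.356 and 0.356 in limma).

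**Figure D4:**
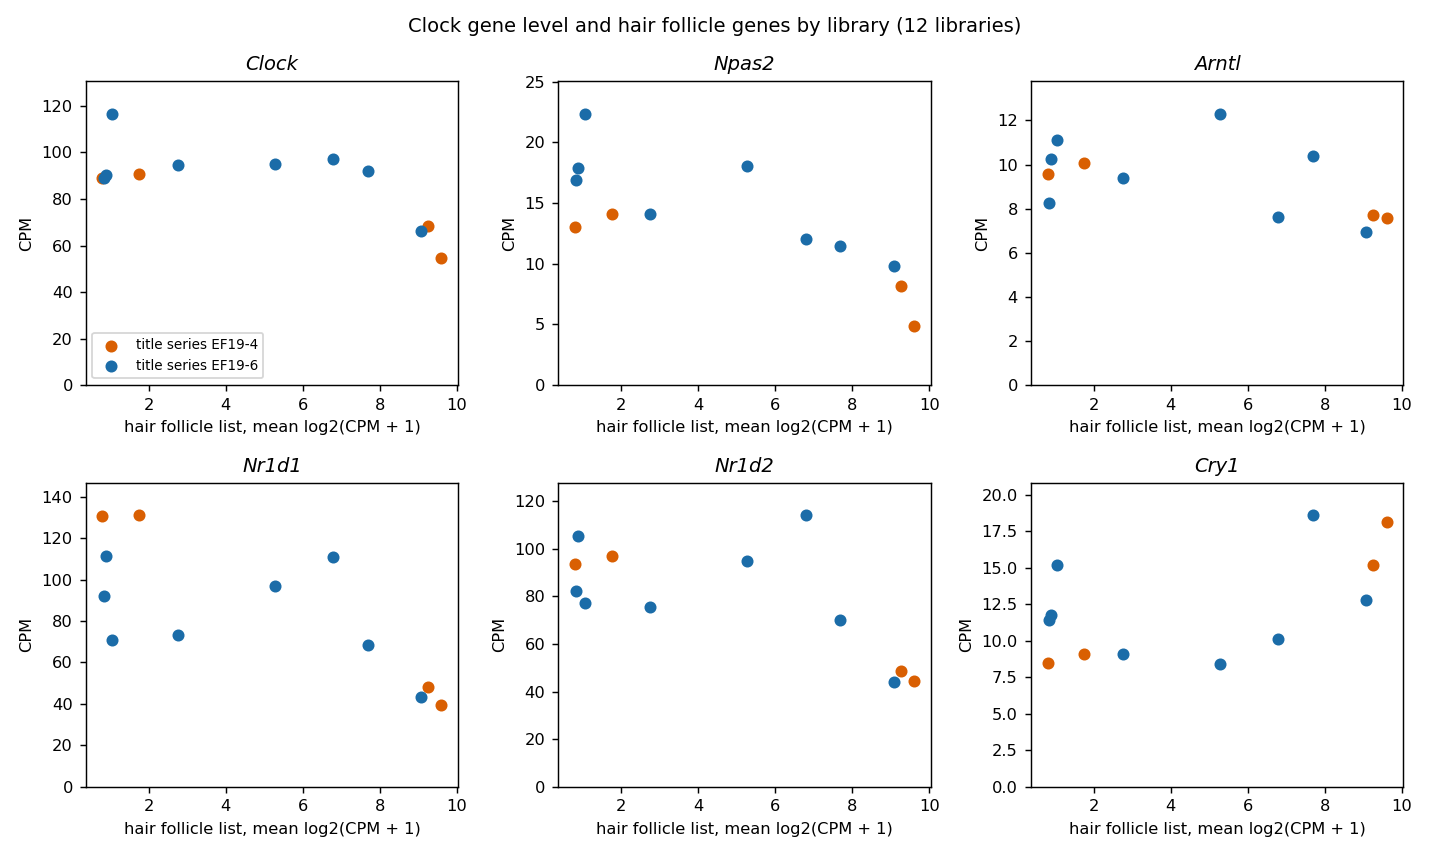
Level in CPM (vertical axes, from 0) of 6 clock genes, picked after their values were seen, against the mean log2(CPM + 1) of 18 hair follicle genes (horizontal axes), with 1 point per library coloured by title series. Clock, Npas2, Nr1d1 and Nr1d2 are lowest in the 3 libraries with means of 9.07 to 9.60.

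The genes were next compared among themselves on the log2(CPM + 1) scale. Of 45 pairs, 30 had a Pearson correlation above 0 over the 12 libraries and 33 over the 8 EF19-6 libraries, which share a title series, and 40 had the same sign in both. These correlations are descriptions with no test, and the libraries share group and tissue content. The closest pair was Nr1d1 with Nr1d2, with r = 0.95 and rho = 0.90 over 12 libraries and r = 0.98 and rho = 0.95 over the 8. Per3 with Dbp, an activator with a D-box gene, had r = 0.82 and rho = 0.78 over 12 libraries and r = 0.81 and rho = 0.74 over the 8. This was not particular to Dbp. Per3 with Nr1d2 had r = 0.72 and rho = 0.85 over 12 libraries and r = 0.86 and rho = 0.88 over the 8. Clock with Npas2 had r = 0.90 and rho = 0.68 over 12 libraries and r = 0.72 and rho = 0.52 over the 8. Cry1 ran against Nr1d1, with r = -0.73 and rho = -0.73 over 12 libraries and r = -0.43 and rho = -0.57 over the 8.

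Arntl was tested against each of the other 9 genes over the EF19-6 libraries, with a two-sided exact permutation of the pairings and Benjamini-Hochberg adjustment over the 9 relations. With Npas2 it had r = 0.69 (n = 8, exact permutation p = 0.0628, adjusted 0.332) and rho = 0.71 (exact permutation p = 0.0576, adjusted 0.518), and with Clock r = 0.64 (exact permutation p = 0.0738, adjusted 0.332) and rho = 0.52 (exact permutation p = 0.197, adjusted 0.729). Without ticks 2x replicate 1 and ticks 3x replicate 2, the libraries farthest from the median of Arntl, r was 0.29 with Npas2 and 0.44 with Clock, so both rest in part on those libraries. Over all 12 libraries r was 0.70 with each, with an adjusted permutation p of 0.0451. Libraries were permuted freely across exposure groups, and over the 12 also across title series, so these permutation p-values are approximate. Spearman's rho over the 12 was 0.74 with Npas2 (adjusted permutation p = 0.0717) and 0.64 with Clock (adjusted permutation p = 0.140), so the rank test passed for neither. With the genes of the opposite arm no relation passed: r was -0.07 with Dbp (exact permutation p = 0.876), 0.33 with Nr1d1 (exact permutation p = 0.431), 0.38 with Nr1d2 (exact permutation p = 0.373), -0.42 with Per2 (exact permutation p = 0.300) and 0.21 with Per3 (exact permutation p = 0.609). Spearman's rho for these 5 genes lay between -0.48 and 0.12, with exact permutation p from 0.243 to 0.935. Cry1 (r = 0.02) and Ciart (r = -0.01) did not pass either, with exact permutation p of 0.956 and 0.974.

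**Figure D5:**
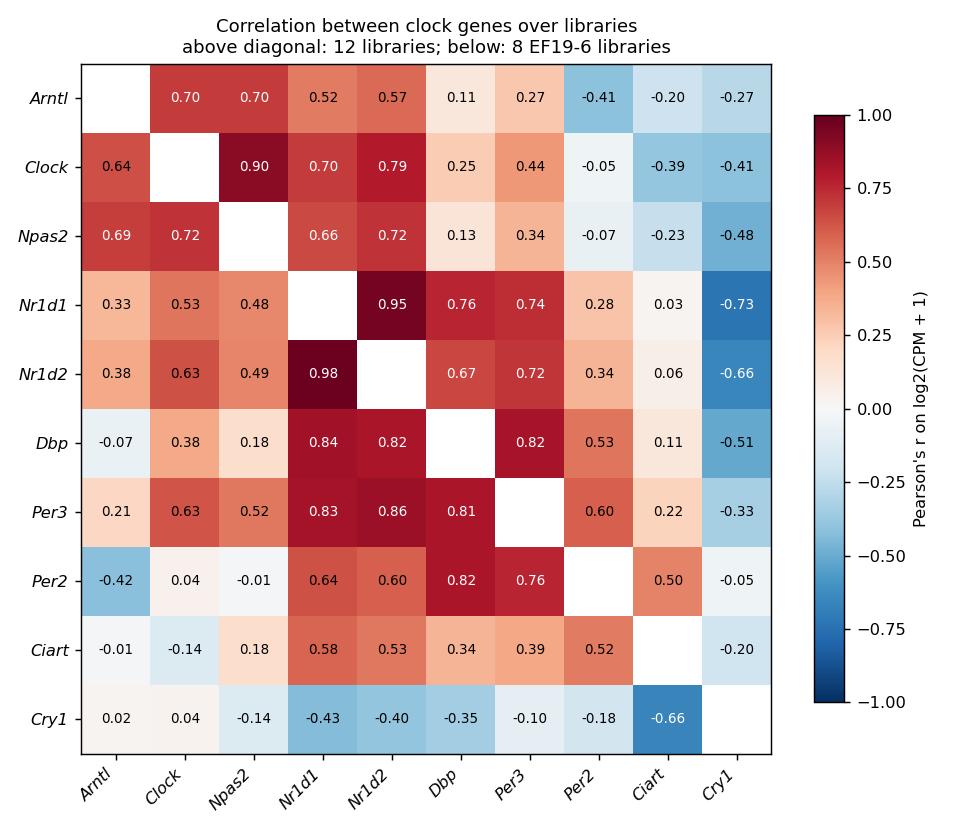
Pearson's r on log2(CPM + 1) between the 10 clock genes, over 12 libraries above the diagonal and over the 8 EF19-6 libraries below it, with red for positive and blue for negative values. Nr1d1, Nr1d2, Dbp and Per3 form a block of values from 0.67 to 0.98, and Arntl is near 0 with Dbp.

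Among 12514 genes with a mean of at least 5 CPM, those most like Arntl over the 12 libraries were Ldah (r = 0.88), 5930430L01Rik (0.87), Acbd4 (0.86), C2cd2 (0.85) and Vipr1 (0.85). Those most like Dbp were LOC102636815 (r = 0.86), Sgsm3 (0.84), Polm (0.83), Gm40022 (0.82) and Mtmr14 (0.82). None of them is on the clock lists used here. Of the clock lists, Hlf, a relative of Dbp, stood 18th of the 12514 genes by likeness to Arntl (r = 0.81), and Tef, the other relative, stood 61st by likeness to Dbp (r = 0.74). Nfil3, the repressor that competes with DBP for D-boxes, stood at 12484 of 12514 for Dbp (r = -0.73). Hlf, Tef and Nfil3 were chosen after their values were seen.

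The rest of the clock machinery likewise held no called gene. Of 11 other genes of the loop, 0 passed the threshold in any of the 7 comparisons, and of 12 clock kinases, ubiquitin ligase subunits and output genes, 0 did. Of all genes, 2.85% were called between the title series and at most 0.0352% in each other comparison. A count of 0 in these lists is thus near the share of all genes. Between the title series the 11 had a median log2 fold change of -0.17 and the 12 one of -0.07. The most abundant of them by CPM was Rora, which encodes an activator at ROREs, at 131, 92.8 and 282 CPM after first exposure, 151, 308 and 204 CPM in ticks 2x, 326, 260 and 301 CPM in ticks 3x and 252 CPM in saliva immune skin, against 186 and 300 CPM in naive skin. Its 3 lowest libraries were again those richest in hair follicle genes. Of the 23 genes of both lists, 3 had those libraries below all others and 3 above, against 6.92% and 14.6% of all genes. Csnk1d, a casein kinase that phosphorylates the period proteins, lay between 135 and 184 CPM in the 12 libraries, and Gsk3b, another kinase with clock proteins among its substrates, between 127 and 195 CPM. In the 3 libraries richest in hair follicle genes Csnk1d was highest, at 178 to 184 CPM, against 135 to 164 CPM in the others.

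Estimated depth, from the step between low CPM values, was between 12512359 and 29772757 reads per library, which puts 3 reads at 0.101 to 0.240 CPM, below the lowest clock gene value in any library. The labelled tissue was checked with keratinocyte genes: Krt5 lay between 1660 and 4846 CPM and Krt14 between 831 and 3264 CPM in the 12 libraries.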

How the data were processed

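RNA of 12 mouse skin biopsies was sequenced. Per the submitters' processing notes, the tools were STAR and Partek 8.0.19 and the build GRCm38.p6 (counting program and annotation: not given in the sources used here). The deposited table holds CPM values, and its lowest values show that the authors added 0.0001 throughout; 2 gene names that occurred more than once were left out. Between 73.7% and 79.4% of values from 0.01 to 3 CPM lay within 0.02 reads of a whole multiple of 1 step, taken as 1 read. As this was not nearly all values, no count test was run. Floors in reads cover counting error only. The intervals printed are limma's and rest on the spread between libraries, which may be technical.

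Genes reaching 1 CPM in 2 or more libraries were tested on log2(CPM + 1) with limma 3.58.1 under R 4.3.3, using its mean-variance trend and Benjamini-Hochberg adjustment over all genes tested. This scale understates changes of low genes. The 4 groups with 2 or 3 libraries shared 1 fit of 11 libraries; the title series were fitted over 12. The members, lists, comparisons and naming rule (all 10 clock genes; called or most abundant genes of the other clock lists; the 5 genes most correlated with Arntl and with Dbp) were chosen with earlier results of these data known. Alternatives were a pseudocount of 0.1, no filter or one at 5 CPM, median-of-ratios scaling, a hair follicle covariate, fits of the compared groups or bitten libraries only, and leaving out each library. The test was checked on simulated data. Coordinates and promoters are RefSeq's for GRCm38.p6, where 22654 symbols (90.4%) matched. Python 3.11.15, pandas 2.3.3, numpy 2.4.6, scipy 1.17.1 and matplotlib 3.10.9 were used.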

Additional observations from a re-analysis of the deposited data

Results flagged for a closer look

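Per2 stood out in the saliva immune library. It was at 7.02 CPM there, below 9.33, 9.42 and 9.06 CPM in the first exposure libraries of the same title series, and its gap to the nearest of them was large beside the range of these 4 libraries. Chance gives such a gap in about 1 of 20 groups, and the 10 genes were looked at in both title series. No reason for it was tested.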

How the results depend on the processing

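The number of clock genes called was 0 in all 7 comparisons and stayed 0 under every alternative other than leaving out 1 library, although the filter at 5 CPM left Ciart untested. On leaving out 1 library it ranged from 0 to 0 in 6 comparisons and from 0 to 2 for ticks 3x against first exposure. A lone naive library was then assumed to vary like the other groups. No paired analysis was possible because the labels link no libraries across groups.

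Of 70 log2 fold changes (10 genes, 7 comparisons), 19 changed sign under at least 1 alternative, 8 of them with all libraries kept; all 19 were small, with a main value of at most 0.35 in size. Between EF19-4 and EF19-6, median-of-ratios scaling gave -0.017 for Cry1 and -0.034 for Per2, the hair follicle covariate -0.026 for Cry1 and 0.05 for Nr1d1, and bitten libraries alone -0.019 for Ciart and -0.12 for Per2. The covariate gave 0.14 for Nr1d1 in first exposure against naive, -0.22 for Nr1d1 and -0.093 for Nr1d2 in ticks 2x against first exposure, and -0.10 for Dbp in ticks 3x against first exposure. Median-of-ratios scaling gave 0.015 for Arntl in ticks 2x against first exposure. Leaving out 1 library, folds that changed sign ranged as follows. Between the title series Cry1 lay from -0.15 to 0.19, Nr1d1 from -0.34 to 0.23 and Per2 from -0.091 to 0.19. In first exposure against naive Nr1d1 lay from -0.66 to 0.19 and Per3 from -0.21 to 0.48. In ticks 2x against naive Dbp lay from -0.42 to 0.40, Npas2 from -0.71 to 0.19, Nr1d1 from -0.30 to 0.24, Nr1d2 from -0.34 to 0.10 and Per2 from -0.11 to 0.52. In ticks 3x against naive Arntl lay from -0.25 to 0.061, Clock from -0.31 to 0.030 and Npas2 from -0.48 to 0.42. In ticks 2x against first exposure Arntl lay from -0.13 to 0.080, Nr1d1 from -0.26 to 0.60 and Nr1d2 from -0.075 to 0.48. In ticks 3x against first exposure Dbp lay from -0.29 to 0.62 and Per2 from -0.025 to 0.77.

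Counts over all genes moved more. For EF19-4 against EF19-6, 490 genes were called, against 136 with the filter at 5 CPM, 771 with the hair follicle covariate, 298 in bitten libraries only and 232 to 420 on leaving out 1 library. For first exposure against naive 2 were called, against 9 with a pseudocount of 0.1, 9 without a filter, 8 with the filter at 5 CPM and 0 to 600 on leaving out 1 library. For ticks 2x against naive 6 were called, against 11 without a filter, 3 at 5 CPM, 0 with only the groups compared and 0 to 5 on leaving out 1 library. For ticks 3x against naive 1 was called, against 5 without a filter, 0 with only the groups compared and 0 to 1 on leaving out 1 library. Where 0 genes were called, leaving out 1 library gave 0 to 1 for ticks 3x against ticks 2x, 0 to 137 for ticks 2x against first exposure and 0 to 1371 for ticks 3x against first exposure.

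For Arntl, r over all 12 libraries was 0.70 with Clock and 0.70 with Npas2. Each passed the threshold there by r but not by rho, with libraries permuted across groups and title series. Its weak relations changed sign. With Cry1 r was -0.27 over 12 libraries (rho -0.24), -0.029 without the 2 libraries farthest from the median and -0.62 on deviations from group means, an alternative added after the data were seen, which also gave -0.23 with Per3 and 0.16 with Ciart. On these deviations r with Per2 was -0.72 (permutation p = 0.0415, adjusted 0.323), against -0.42 without centring. Centred values were permuted across groups, between which they are not exchangeable, so this p is approximate. With Clock r on the deviations was 0.42, against 0.64 without centring, and with Npas2 0.66, against 0.69. With Ciart r was 0.15 without the 2 farthest libraries. With Dbp rho was 0.048 over the 8 libraries, r 0.11 over 12 and rho 0.15 over 12. The cause of these shifts was not tested. Depth limits Ciart most.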
